A study of Mus musculus with 30 samples.

Results

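The genes described here are 10 matricellular and elastic fibre genes of the mouse: Postn, Sparc, Thbs1, Thbs2, Ccn4, Smoc2, Eln, Fbn1, Tnc and Ccdc80. They were found by gene symbol among the 26423 probes of a whole-genome oligonucleotide array, which named 19082 genes. Of the 10 genes, 9 had a probe, and Thbs2 had 2. The remaining gene, Fbn1, had none and is only named. The study reprogrammed mouse somatic cells to pluripotency with small molecules and profiled RNA of the starting cells, the products and embryonic stem cells in 30 samples.

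Matricellular proteins are secreted into the extracellular matrix, where they bind structural proteins, growth factors and cell surface receptors, and they tune how cells adhere and migrate more than they bear load. Elastic fibres are built from cross-linked elastin laid on microfibrils of fibrillin, and they give tissue its recoil. Fibroblasts and smooth muscle cells are the usual sources of both in connective tissue.

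The authors normalized the samples in 5 sets, so levels are compared within a set. Somatic samples (7) were embryonic fibroblasts (MEF1, MEF2 and MEF3), wild-type embryonic fibroblasts (WT MEF), neonatal fibroblasts (MNF), adult lung fibroblasts (MAF) and adult adipose-derived stem cells (ADSC), all untreated. Chemically induced pluripotent stem cell lines, CiPSC (11), were each 1 line under a cocktail given by a code. In set 1 the embryonic-fibroblast lines were CiPS34 (VC6TFMP+Z), CiPS50 (VC6F+Z) and CiPS21 (VC6TFDBS+Z), and the neonatal line was MNF CiPS7 (VC6TFS+Z). Set 2 held MNF CiPS1 (VCT6FMDBR+Z), MAF CiPS3 (VC6TFDM+Z), the embryonic-fibroblast line CiPS45 (FC6+Z) and ADSC CiPS2 (VC6TFMPS+Z), whose source label reads adult lung fibroblasts although its name and line say ADSC. Set 3 held WT MEF, the lines CiPS WT1 and CiPS WT2 made from wild-type embryonic fibroblasts with VC6TFMPS+Z, and ESC3. Set 4 held MEF2, ESC4 and SKM-FSK1 and SKM-FSK2 (2), lines induced with Sox2, Klf4 and c-Myc and the treatment labelled F. Set 5 was a time course of embryonic fibroblasts treated for 12 days (VC6TF) and for 20 and 32 days (VC6TF+Z), 1 sample each, beside MEF3, a CiPSC control line (VC6TF+Z) and ESC5. OSKM iPSC (2), induced with Oct4, Sox2, Klf4 and c-Myc, were in sets 1 and 2. Embryonic stem cells, ESC (5), were of line R1 in sets 1, 3, 4 and 5 and of line TT2 in set 2 (ESC2). Strain, sex and genotype beyond these names were not stated in the labels. Per the labels, somatic cells grew in medium with serum, and all pluripotent lines grew on feeder layers of growth-arrested embryonic fibroblasts, which themselves make matrix. These are bulk samples, so fewer cells of a type and less RNA per cell cannot be told apart.

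Each sample is 1 deposited column, which by the design text stands for 2 replicates in sets 3 and 5 and 3 in the other sets, so no spread within a sample is available. The number of arrays limits the precision. A probe was measured in every sample of a set or in none. Tnc and Eln were measured in all 5 sets, Sparc in 4 (not set 2), Postn, Ccn4, Smoc2 and Ccdc80 in 3 (sets 3, 4 and 5), and Thbs1 (sets 3 and 5) and Thbs2 (sets 4 and 5) in 2. Summed intensities of pluripotency markers were 0.575 to 1.42 times those of the set's ESC in the CiPSC lines and at most 0.0190 times in somatic samples, and fibroblast markers summed to 18.1 to 259 times the ESC level in somatic samples. The markers measured differed between sets, from 2 of 12 fibroblast markers in set 1 to 12 in set 5. Of 10 pluripotency markers, 6 were measured in set 3 and 9 in set 5. Set 5 stood apart. Where 2 probes named 1 gene, their log2 differences between a somatic sample and the ESC of the set correlated with r = 0.470, 0.609, 0.663 and 0.734 in sets 1 to 4 and with r = 0.132 in set 5 (688 to 2100 pairs). In set 5, 18.6% of the pairs moved in opposite directions by at least 2-fold each, against 0.609% to 3.34% in the other sets. MEF3 read 9.92 for Col1a1 and 81.2 for Lum, both defining fibroblast markers. Some pluripotency markers were low in the pluripotent samples of set 5. Pou5f1 read 24.2 in the CiPSC control, 140.5 in ESC5 and 61.0 in MEF3. Sox2 read 41.1, 34.2 and 28.2, and Tfcp2l1 18.7, 17.3 and 14.6 in the same order. Others were high, such as Esrrb with 25958, 27782 and 91.0. The fitted differences of members that could be tested without set 5 are therefore also given without it.

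RefSeq's promoter table (build GRCm38.p6) held windows for 5 of the 10 genes: Postn, Sparc, Thbs2, Fbn1 and Tnc. The 250 bases before the outermost start of the 4 measured ones are shown because, in each set that measured them, these genes were higher in the fibroblasts than in the ESC. The bases run 5′ to 3′ on the strand of the gene, with matches to the searched motifs in capitals. The windows are chr3:54359017-54359266 (plus strand) for Postn, chr11:55420081-55420330 (minus) for Sparc, chr17:14694263-14694512 (minus) for Thbs2 and chr4:64047016-64047265 (minus) for Tnc.
Postn: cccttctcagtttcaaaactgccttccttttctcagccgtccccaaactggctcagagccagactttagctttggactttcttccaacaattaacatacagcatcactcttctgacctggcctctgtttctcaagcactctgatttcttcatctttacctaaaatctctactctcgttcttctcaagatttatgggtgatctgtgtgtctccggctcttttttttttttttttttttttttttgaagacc
Sparc: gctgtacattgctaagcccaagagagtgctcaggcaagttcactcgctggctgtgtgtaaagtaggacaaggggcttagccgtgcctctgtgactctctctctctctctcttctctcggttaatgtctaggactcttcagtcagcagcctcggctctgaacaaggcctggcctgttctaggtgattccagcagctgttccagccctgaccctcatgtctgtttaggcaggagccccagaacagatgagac
Thbs2: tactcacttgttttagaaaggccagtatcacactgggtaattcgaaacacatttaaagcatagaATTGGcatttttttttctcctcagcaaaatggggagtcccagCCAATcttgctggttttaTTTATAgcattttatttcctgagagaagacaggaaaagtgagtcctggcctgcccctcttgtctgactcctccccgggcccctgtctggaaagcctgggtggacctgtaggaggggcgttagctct
Tnc: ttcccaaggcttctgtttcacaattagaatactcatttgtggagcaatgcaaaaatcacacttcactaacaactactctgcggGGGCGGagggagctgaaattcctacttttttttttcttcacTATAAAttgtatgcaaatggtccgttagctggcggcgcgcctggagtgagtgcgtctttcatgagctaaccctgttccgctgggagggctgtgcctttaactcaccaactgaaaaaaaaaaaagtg

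Of 5 motifs searched on both strands, none overlapped another in these windows. They were the letters TATAAA of the TATA box, the CCAAT box, the AP-1 site as TGANTCA, the TEAD site as GGAATG and the Sp1 site as GGGCGG. Tnc held TATAAA at 126 to 121 bases before its start and the Sp1 letters at 167 to 162. Thbs2 held TATAAA on the opposite strand at 126 to 121 bases before its start, and CCAAT on the opposite strand at 186 to 182 and on its own strand at 144 to 140. The windows of Postn and Sparc held none of the 5 motifs. Of 27025 promoter windows of the same length, 13.0% held the TATA box letters, 34.5% the CCAAT box, 6.85% the AP-1 site, 12.6% the TEAD site and 33.0% the Sp1 site. The TATA box letters were thus in both the Tnc and the Thbs2 window, on opposite strands, and no motif was in all 4 windows. A match is only a match of letters.

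Tenascin-C, encoded by Tnc (chr4:63959785-64047015), is a large multi-armed glycoprotein of embryonic and healing tissue. In set 1 its intensity was 22513 in MEF1, 149.6 in CiPS34, 118 in MNF CiPS7, 793 in CiPS50, 112 in CiPS21, 107 in OSKM iPS1 and 152 in ESC1. In set 2 it was 7708 in MNF, 14719.7 in MAF, 19548 in ADSC, 118 in MNF CiPS1, 854 in MAF CiPS3, 239.7 in CiPS45, 417 in ADSC CiPS2, 231 in OSKM iPS2 and 164 in ESC2. The somatic samples of both sets lay far above their pluripotent lines, with no overlap. Among the CiPSC lines of sets 1, 2 and 5, Tnc was 0.721 to 5.21 times the ESC level, and 4 of 9 lines were at least 2-fold above it. CiPS50 (5.20 times) and MAF CiPS3 (5.21 times) were the highest of them. Summed fibroblast markers were 1.40 times the ESC level in CiPS50 (2 markers measured in set 1) and 8.64 times in MAF CiPS3 (4 markers in set 2). OSKM iPS2 had 5.47 times the marker sum and 1.41 times the Tnc level of ESC2. The sums of sets 1 and 2 cover different numbers of markers. The part of other cells in these Tnc levels was not tested.

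Elastin, encoded by Eln (chr5:134702595-134747368), forms the core of elastic fibres. In set 1 it read 31623 in MEF1, 90.0 in CiPS34, 63.1 in MNF CiPS7, 92.0 in CiPS50, 123 in CiPS21, 122 in OSKM iPS1 and 59.6 in ESC1. In set 2 it read 2328 in MNF, 462 in MAF, 158 in ADSC, 243 in MNF CiPS1, 294 in MAF CiPS3, 91.1 in CiPS45, 117 in ADSC CiPS2, 136 in OSKM iPS2 and 86.5 in ESC2. Eln was thus not uniformly high in somatic cells: neonatal fibroblasts were 5.04-fold above adult lung fibroblasts and 14.8-fold above ADSC. Tnc ran the other way in the same samples, with ADSC 2.54-fold above MNF and 1.33-fold above MAF. These are single samples, so the differences have no replicate check. ADSC lay below MNF CiPS1 and MAF CiPS3 for Eln, which was the 1 case among 32 combinations of probe and set in which somatic and pluripotent samples overlapped.

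SPARC is a calcium-binding glycoprotein that binds collagen, and of the 8 tested members Sparc (chr11:55394159-55420080) had the smallest fitted difference between embryonic stem cells and somatic cells. In set 1 it read 28731 in MEF1, 11634 in CiPS34, 8236 in MNF CiPS7, 5626 in CiPS50, 4432 in CiPS21, 2424 in OSKM iPS1 and 5595 in ESC1. The pluripotent lines of set 1 thus read 2424 or more for this gene. CiPS50, among the highest lines for Tnc, was within 1.01 times of ESC1 for Sparc. Sparc ran from 0.792 to 2.08 times the ESC level across the 5 CiPSC lines of sets 1 and 5.

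**Figure D1:**
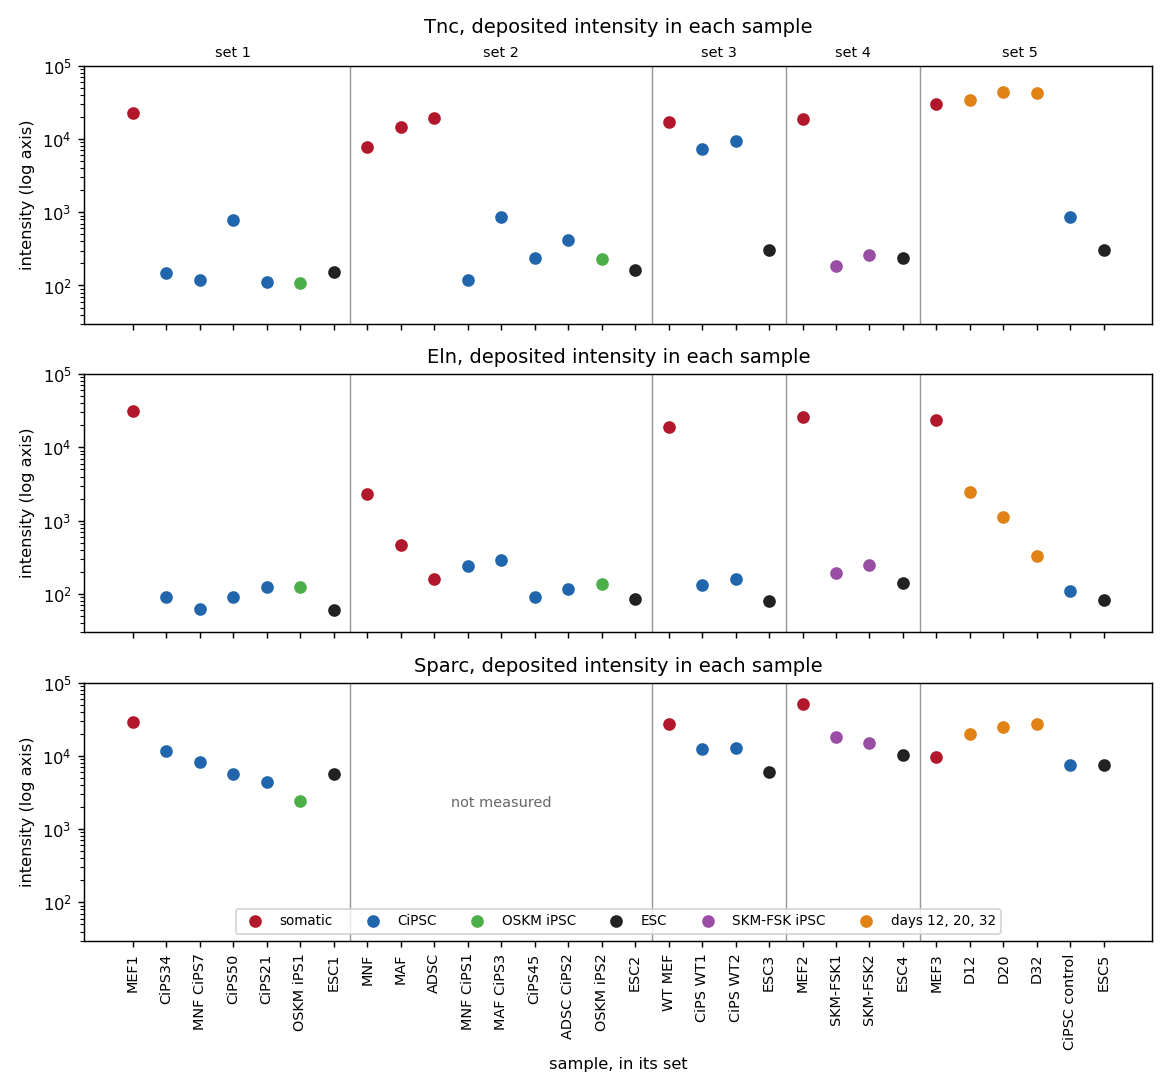
Deposited intensity (log axis) of Tnc, Eln and Sparc in each sample, ordered by set and coloured by group; vertical lines part the sets, and levels compare within a set. CiPS WT1 and CiPS WT2 stand near WT MEF for Tnc (7281 and 9499.8 against 16869.9), and Eln falls among the somatic samples of set 2 from 2328 to 158.

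In set 3 most members were well above the stem cell level in both wild-type CiPSC lines. Thrombospondin-1, encoded by Thbs1 (chr2:118111876-118127133), a trimeric glycoprotein that can activate latent TGF-β, read 11251 in WT MEF, 7832 in CiPS WT1, 7116 in CiPS WT2 and 474 in ESC3. Tnc read 16869.9, 7281, 9499.8 and 306 in the same order. Ccdc80 (chr16:45093407-45127924), which encodes a secreted matrix-associated protein, read 16614, 5206, 6036 and 209. For these genes both lines were 15.0 to 31.0 times above ESC3 and within 3.19-fold of WT MEF.

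Periostin, encoded by Postn (chr3:54359267-54391041), binds integrins and collagen. It read 20008 in WT MEF, 3661 in CiPS WT1, 4154 in CiPS WT2 and 130.2 in ESC3. Sparc read 27597, 12500.2, 12907 and 6010.5 in that order. The CCN-family gene Ccn4 (chr15:66891369-66923201), also known as Wisp1 and induced by Wnt signalling, read 7564, 873, 836 and 90.9. These levels stood apart from both ends, at least 2-fold above ESC3 and 2-fold under WT MEF in both lines.

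The remaining pair read under 1% of WT MEF in both lines. Smoc2 (chr17:14279490-14404790), which encodes a calcium-binding protein of the SPARC family, read 5114 in WT MEF, 50.6 in CiPS WT1, 41.9 in CiPS WT2 and 8.75 in ESC3. That is 5.79 and 4.79 times ESC3, but under 1% of WT MEF (0.990% and 0.819%), and the ESC3 value is among the lowest of its set, where at most 0.159% of values were under 16. With values under 16 set to 16, the mean log2 position of Smoc2 between ESC3 (0) and WT MEF (1) moved from 0.26 to 0.18. Eln read 19219, 132, 162 and 79.8, so the lines were 146- and 119-fold below WT MEF.

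**Figure D2:**
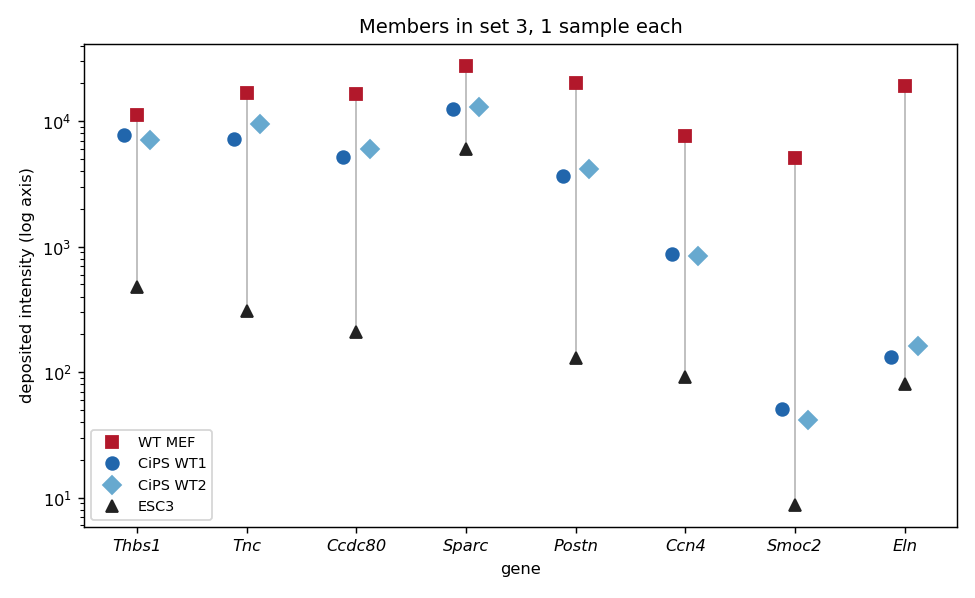
Deposited intensity (log axis) of the 8 members measured in set 3; squares are WT MEF, circles CiPS WT1, diamonds CiPS WT2, triangles ESC3, and a line joins ESC3 and WT MEF. The 2 lines lie close together for each gene (CiPS WT2 is 0.827 to 1.30 times CiPS WT1) but at very different heights between the ends.

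Both lines were at least 2-fold above ESC3 for 7 of the 8 members, all but Eln. The share was 4.35% among all 14934 genes with the same measurements, 18% among the 2613 genes at least 2-fold higher in WT MEF than in ESC3, and 49.2% among the 508 genes at least 8-fold higher. Levels at least 2-fold from both ends were seen in 5 of the 8 members. This needs a gene to be at least 4-fold higher in WT MEF than in ESC3, and the share was 24.5% among the 1117 such genes, 44.9% among the 508 at least 8-fold higher and 1.83% among all genes. With 1 sample per line there is no test within set 3.

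Measured on the linear scale as a share of the distance from ESC3 to WT MEF, the members spread over more than 2 orders of magnitude. Thbs1 stood at 68.3% in CiPS WT1 and 61.6% in CiPS WT2, Tnc at 42.1% and 55.5%, Ccdc80 at 30.5% and 35.5%, and Sparc at 30.1% and 31.9%. Postn followed with 17.8% and 20.2%, and Ccn4 with 10.5% and 9.97%. Smoc2 (0.820% and 0.649%) and Eln (0.272% and 0.427%) were near the ESC3 end. Over the 508 genes at least 8-fold higher in WT MEF the median was 7.77% in CiPS WT1 and 7.59% in CiPS WT2, with quartiles of 1.97% and 15.3% and of 1.69% and 15.9%.

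Most fibroblast and smooth muscle markers were above ESC3 in both wild-type lines as well, and most markers of other cell types were not. Of 8 fibroblast markers measured in set 3, 7 were at least 2-fold above ESC3 in both lines, at 0.385% to 24.3% of the distance to WT MEF. Their summed intensity was 110750 in WT MEF, 11383 in CiPS WT1, 13684 in CiPS WT2 and 1178 in ESC3. Thy1, a stromal surface antigen, was the highest share (16.3% and 24.3%), and Pdgfra, a receptor of fibroblasts, the lowest (0.385% and 0.723%). Of 4 smooth muscle markers 3 were at least 2-fold above ESC3 in both lines, and Myh11, smooth muscle myosin, was above WT MEF itself, with 365 in WT MEF, 1389.9 in CiPS WT1, 1480.5 in CiPS WT2 and 34.1 in ESC3. Acta2 stood at 59.1% and 55.2% of the distance to WT MEF in CiPS WT1 and CiPS WT2. Tagln stood at 27.3% and 25.6%. Des, with 450 in WT MEF and 249 in ESC3, stood at 70.6% and 43.5%. None of 4 macrophage, 5 endothelial, 3 adipocyte and 2 lung epithelial markers was at least 2-fold above ESC3 in both lines. Of 5 extraembryonic endoderm markers 1 was. In each of the endothelial, adipocyte and lung epithelial lists 1 marker was at least 2-fold under ESC3 in both lines. Pluripotency markers summed to 42459 and 47084 in the 2 lines against 48784 in ESC3. The part of other cells in the members' levels was not tested.

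**Figure D3:**
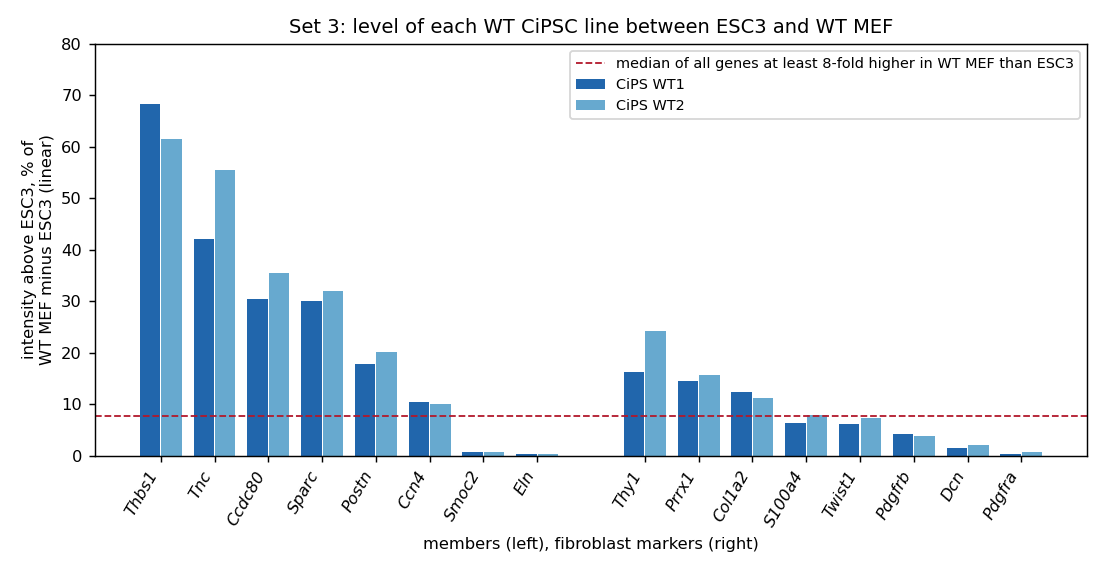
Intensity above ESC3 as a percent of WT MEF minus ESC3 (linear scale), for the 8 members and 8 fibroblast markers in CiPS WT1 (dark) and CiPS WT2 (light); the dashed line is the mean of both lines' medians over the 508 genes at least 8-fold higher in WT MEF. Thbs1, Tnc, Ccdc80 and Sparc reach 30.1% to 68.3%, above each fibroblast marker (at most 24.3%), while Smoc2 and Eln stay under 1%. Smooth muscle markers, which are not drawn, stood at 25.6% or more. Sparc is 4.59-fold higher in WT MEF than in ESC3, so it is not among the 508 genes.

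Whether the wild-type lines differ from other CiPSC lines was tested across all genes with limma, a linear model of log2 intensity with group and set as terms and a spread moderated over genes, with Benjamini-Hochberg adjustment. A gene is called here at an adjusted p under 0.05 and a difference of at least 2-fold. Set 3 held no other CiPSC line. The contrast thus sets the CiPSC level, relative to the somatic and ESC samples of its set, in set 3 against the other sets. In set 3 it rests on WT MEF and ESC3, 1 sample each. A difference between the lines and one between the sets cannot be told apart. None of the 8 members was called, against a background of 0.0067% (1 of 14934 genes). At an unadjusted p under 0.05 there were 5 members and 368 genes. Tnc was higher in the wild-type lines by 4.33 ± 0.92 (log2, SE; 2 lines against 9; unadjusted p = 0.000113, limma adjusted p = 0.12). Without MAF CiPS3 the limma adjusted p of Tnc was 0.0428 with a difference of 4.55. Of the 25 fits with 1 sample left out, this was the only 1 in which Tnc was called. MAF CiPS3 had the highest Tnc level relative to its ESC among the other CiPSC lines (5.21 times), so leaving it out widens the contrast. Ccdc80 differed by 4.04 ± 1.59, Postn by 3.91 ± 2.43, Ccn4 by 2.48 ± 0.75, Thbs1 by 2.47 ± 0.93 and Smoc2 by 2.32 ± 1.00, and for these 5 genes the other side of the contrast is the CiPSC control of set 5 alone. Sparc (0.62 ± 0.67) and Eln (-1.43 ± 1.69) were the smallest, and the sign of Eln turned without set 2 (0.77 ± 0.50). Without set 5, Tnc differed by 4.47 ± 0.96 (limma adjusted p = 0.14), Sparc by 0.84 ± 0.54 and Eln by -1.78 ± 1.72.

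Against somatic cells, CiPSC had lower levels of 5 of the 8 testable members, where 13.3% of 16497 genes were called lower and 14.8% higher. The 4 widest were Smoc2 (log2 difference -7.35 ± 0.67 SE, limma adjusted p = 1.87e-05), Eln (-5.05 ± 0.76, limma adjusted p = 1.4e-05), Tnc (-4.84 ± 0.58, limma adjusted p = 6.95e-07) and Ccn4 (-4.47 ± 0.60, limma adjusted p = 0.000251). The sets behind these estimates differ, since set 2 did not measure Smoc2 or Ccn4, and without set 2 Eln differed by -7.68 ± 0.29. Sparc was lower by 2.53-fold (-1.34 ± 0.37, limma adjusted p = 0.00928). Postn (-3.21 ± 1.46, adjusted p = 0.114), Ccdc80 (-3.11 ± 1.11, adjusted p = 0.052) and Thbs1 (-1.09 ± 0.73, adjusted p = 0.279) were not called by limma. For these genes, as for Smoc2 and Ccn4, the wild-type lines make up 2 of the 3 CiPSC lines measured. The median difference of the members was -3.84, beside -0.11 over all genes.

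Ccdc80 lay close to the threshold. It was called, which makes 6 members, with the 5th percentile added (-3.05, limma adjusted p = 0.0468), with values under 16 set to 16 (-3.11, limma adjusted p = 0.0463), with the lowest 25% of genes removed (-3.11, limma adjusted p = 0.0487) and with an intensity trend in the spread (-3.11, limma adjusted p = 0.0496). It was not called without set 2 (-3.11, limma adjusted p = 0.0653). Over all 39 alternatives the difference ran from -3.57 to -2.47 and the limma adjusted p from 0.00445 to 0.121.

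The call of 5 rests on sets 3 and 5. Tnc, Eln and Sparc were tested without the wild-type lines and stayed lower (-5.64 ± 0.46, -4.79 ± 0.84 and -1.55 ± 0.45), and also without set 5 (-4.80 ± 0.65, -4.65 ± 0.82 and -1.65 ± 0.33). The other members could not be tested in either case, so the count was 3 of 3. Without MEF1 the Sparc difference was -0.995 (limma adjusted p = 0.084). Without ESC5, Ccdc80 (-2.95, limma adjusted p = 0.00445) and Postn (-2.96, limma adjusted p = 0.000718) were called, and without ESC3 Ccdc80 was (-3.38, limma adjusted p = 0.0469).

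Embryonic stem cells were lower than somatic cells for 8 of 8 members, against 14.2% of 16509 genes lower and 15.1% higher. The log2 differences ran from -8.44 ± 0.63 for Smoc2 to -1.81 ± 0.38 for Sparc, with a median of -6.19 beside -0.10 over all genes. Between them stood Ccn4 (-7.04 ± 0.56), Tnc (-6.53 ± 0.68), Eln (-6.21 ± 0.89), Ccdc80 (-6.17 ± 1.04), Postn (-5.83 ± 1.36) and Thbs1 (-3.59 ± 0.80). The largest limma adjusted p among the 8 was 0.0107, for Thbs1. Without set 5, 7 of 7 testable members were lower, with differences of -9.26 ± 0.32 for Smoc2, -8.23 ± 0.48 for Postn, -7.53 ± 0.56 for Ccdc80, -7.09 ± 0.43 for Ccn4, -6.52 ± 0.79 for Tnc, -5.84 ± 0.99 for Eln and -2.29 ± 0.35 for Sparc. Without set 2, Eln differed by -8.17 ± 0.30. Postn was not called without MEF2 or without ESC4 (in both cases -4.15, limma adjusted p = 0.0611), which leaves 7 of 8.

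The 2 kinds of pluripotent cell were then set against each other. None of the 8 members was called by limma between CiPSC and ESC, where 0.0303% of 16497 genes were called higher and 0% lower. Each of the 8 estimates was positive, from 0.47 ± 0.37 for Sparc to 3.06 ± 1.11 for Ccdc80. For Postn, Thbs1, Ccn4, Smoc2 and Ccdc80 the only CiPSC measured were the wild-type lines and the CiPSC control. These genes could not be tested without the wild-type lines. In set 5 alone the CiPSC control differed from ESC5 by -2.12 (log2) for Postn, -1.12 for Smoc2 and -0.72 for Ccdc80. The CiPSC control differed by 1.04 for Ccn4 and 0.53 for Thbs1. ESC5 read 1137 for Postn and 1073 for Ccdc80, against 130 and 209 in ESC3. At an unadjusted p under 0.05 were Thbs1 (2.50 ± 0.73), Ccn4 (2.57 ± 0.60), Tnc (1.69 ± 0.66) and Ccdc80, and 819 of all genes. Without the wild-type lines the estimate was 0.73 ± 0.52 for Tnc, 1.47 ± 0.96 for Eln and 0.27 ± 0.45 for Sparc. Without set 5 it was 1.71 ± 0.75, 1.20 ± 0.95 and 0.65 ± 0.33 in the same order.

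**Figure D4:**
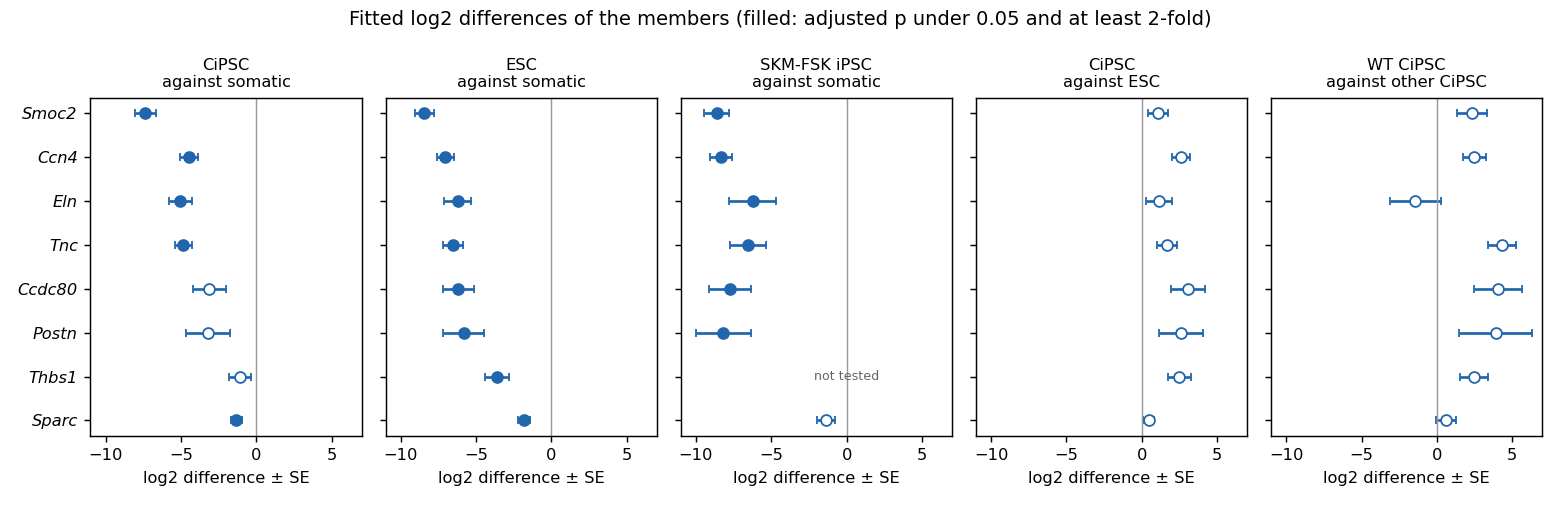
Fitted log2 differences of the members (points) with standard errors (bars) in 5 limma comparisons; filled points are called (adjusted p under 0.05 and at least 2-fold), open points are not. ESC and SKM-FSK iPSC lie left of 0 for each testable member, with Sparc nearest to 0, and the 2 comparisons among pluripotent lines hold no filled point.

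Lines made with transcription factors were also low. Only Tnc and Eln could be tested in OSKM iPSC, and 2 of 2 were lower than in somatic cells, where 10% of 11406 genes were called lower and 12% higher. Tnc differed by -5.92 ± 0.94 (limma adjusted p = 6.38e-05) and Eln by -4.68 ± 1.23 (limma adjusted p = 0.00711). Without set 5 they differed by -5.90 ± 1.00 and -4.39 ± 1.26, both called. In the sets that hold both groups Eln was not called, with a difference of -3.71 ± 1.38 (limma adjusted p = 0.0596). Sparc, measured in 1 of these lines, read 2424 in OSKM iPS1 against 5595 in ESC1, the lowest value of its set.

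SKM-FSK iPSC and somatic cells were both present in set 4 alone, where MEF2 is the somatic sample. The limma estimate also draws on the other sets, through the somatic and ESC groups and the set term. In set 4 the probe of Postn read 59569 in MEF2, 66.8 in SKM-FSK1, 62.0 in SKM-FSK2 and 102 in ESC4, which is 891- and 961-fold below MEF2. Ccn4 read 11166, 22.2, 32.1 and 49.8, Smoc2 18580.1, 30.6, 39.3 and 28.9, and Ccdc80 22402, 38.9, 47.0 and 52.0 in the same order. Each line was 0.446 to 1.36 times ESC4 for these 4 genes, and SKM-FSK1 was more than 2-fold below ESC4 for Ccn4 (0.446 times). Tnc read 18746, 182, 262 and 235, Eln 26033, 191, 248 and 140.2, and Sparc 50651, 18089, 15128 and 10155. By limma 6 of 7 testable members were lower than in somatic cells, against 7.92% of 16260 genes lower and 7.3% higher. Sparc was not called (-1.36 ± 0.57, limma adjusted p = 0.14), and without set 5 it was (-1.60 ± 0.46, limma adjusted p = 0.0264). The other 6 were called without set 5 too, with differences of -9.37 ± 0.53 for Postn, -9.03 ± 0.35 for Smoc2, -8.42 ± 0.63 for Ccdc80, -8.35 ± 0.48 for Ccn4, -6.52 ± 1.27 for Tnc and -6.05 ± 1.59 for Eln. With 1 line left out some calls were lost while the differences stayed as large. Without SKM-FSK1, Eln differed by -6.05 (limma adjusted p = 0.0651) and Postn by -8.22 (limma adjusted p = 0.0784), and without SKM-FSK2 Postn differed by -8.12 (limma adjusted p = 0.0828). Fibroblast markers summed to 0.864 and 0.910 times ESC4 in the 2 lines.

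Thrombospondin-2, encoded by Thbs2 (chr17:14665500-14694262), is a relative of thrombospondin-1 that limits blood vessel growth. Its 2 probes agreed in set 4. One read 19141 in MEF2, 67.8 in SKM-FSK1, 67.4 in SKM-FSK2 and 63.4 in ESC4, and the other read 10221, 32.5, 45.0 and 50.8. In set 5 they did not agree. The first read 659.8 in MEF3, 115 at day 12, 116 at day 20, 138 at day 32, 193 in the CiPSC control and 83.4 in ESC5, and the second read 78.2, 4854, 4722, 6935, 24.8 and 36.7. The first probe was 5.72-, 5.69- and 4.77-fold lower than MEF3 at days 12, 20 and 32, while the second was 62.0, 60.3 and 88.6 times higher. No direction is given for Thbs2 during treatment. Thbs2 left 2 residual degrees of freedom, under the 3 asked for, so it is not among the members tested. With genes of 2 also tested, an alternative added after the values had been seen, it differed in ESC against somatic cells by -5.61 ± 1.22 with the first probe (limma adjusted p = 0.0211) and by -4.37 ± 1.49 with the second (limma adjusted p = 0.0843). In SKM-FSK iPSC the same probes gave -6.83 ± 1.36 (limma adjusted p = 0.0327) and -6.42 ± 1.67 (limma adjusted p = 0.071).

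During chemical treatment the members went separate ways, read as ratios to MEF3 with 1 sample per day and no test. Eln read 23829 in MEF3, 2497 at day 12, 1137 at day 20 and 332 at day 32, against 108 in the CiPSC control and 81.3 in ESC5. It was 9.54-, 21.0- and 71.8-fold below MEF3 on the 3 days, stepwise toward the pluripotent level. Ccn4 read 7868, 1203, 932 and 455, then 131 and 64.0, and was 6.54-, 8.45- and 17.3-fold lower on the 3 days. Ccdc80 read 11725, 2250.5, 3324 and 3105, then 649.8 and 1073.

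The other members were higher than MEF3 or within 2-fold of it at day 32. Tnc read 29948 in MEF3, 34473 at day 12, 43311 at day 20 and 42179 at day 32, against 865 in the CiPSC control and 307 in ESC5, so the day 32 sample was 48.8-fold above the CiPSC control. Smoc2 read 2639, 2177, 2462 and 1468, then 10.8 and 23.5, and stayed within 1.80-fold of MEF3 on the 3 days. Postn read 2321, 7625, 12224 and 9415, then 262 and 1137, and was 3.28, 5.27 and 4.06 times MEF3. Sparc read 9734, 19627, 24566 and 27299, then 7419.6 and 7517. Thbs1 read 5086, 4843, 8288 and 15054, then 1202 and 831. At day 32, Sparc was 2.80 and Thbs1 2.96 times MEF3.

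Counted at a 2-fold threshold without Thbs2, 3 of 8 members were lower and 3 higher than MEF3 at day 32, and 2 were between. Among all 23609 genes of set 5, 31.5%, 33% and 35.7% were at least 2-fold lower at days 12, 20 and 32, and 24.9%, 25.8% and 28.1% higher, so 2-fold differences were common in this set. The members' counts at day 32 were near these shares, so the split is not particular to them. Pairs of probes of 1 gene correlated with r = 0.115 for day 12 minus MEF3. Marker sums differed from MEF3 too, in both directions. Summed fibroblast markers were 278%, 217% and 195% of MEF3 on the 3 days, summed smooth muscle markers 7.70%, 7.85% and 8.24%, summed macrophage markers 11.3%, 8.97% and 21.3%, and extraembryonic endoderm markers 81.1%, 212% and 350%. Single markers could go against their sum: Pdgfrb, a receptor of fibroblasts and mural cells, read 3803 in MEF3 and 2.83, 0.850 and 0.383 on the 3 days. Of the endoderm markers, Col4a1 made up most of the sum, with 13794 of 18170 in MEF3 and 37203 of 63650 at day 32. Gata6 read 1645 in MEF3, 2265 at day 12 and 12003 at day 32, whereas Sox17 read 241 in MEF3 and 222 at day 32. The part of these cell types in the members' values was not tested.

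**Figure D5:**
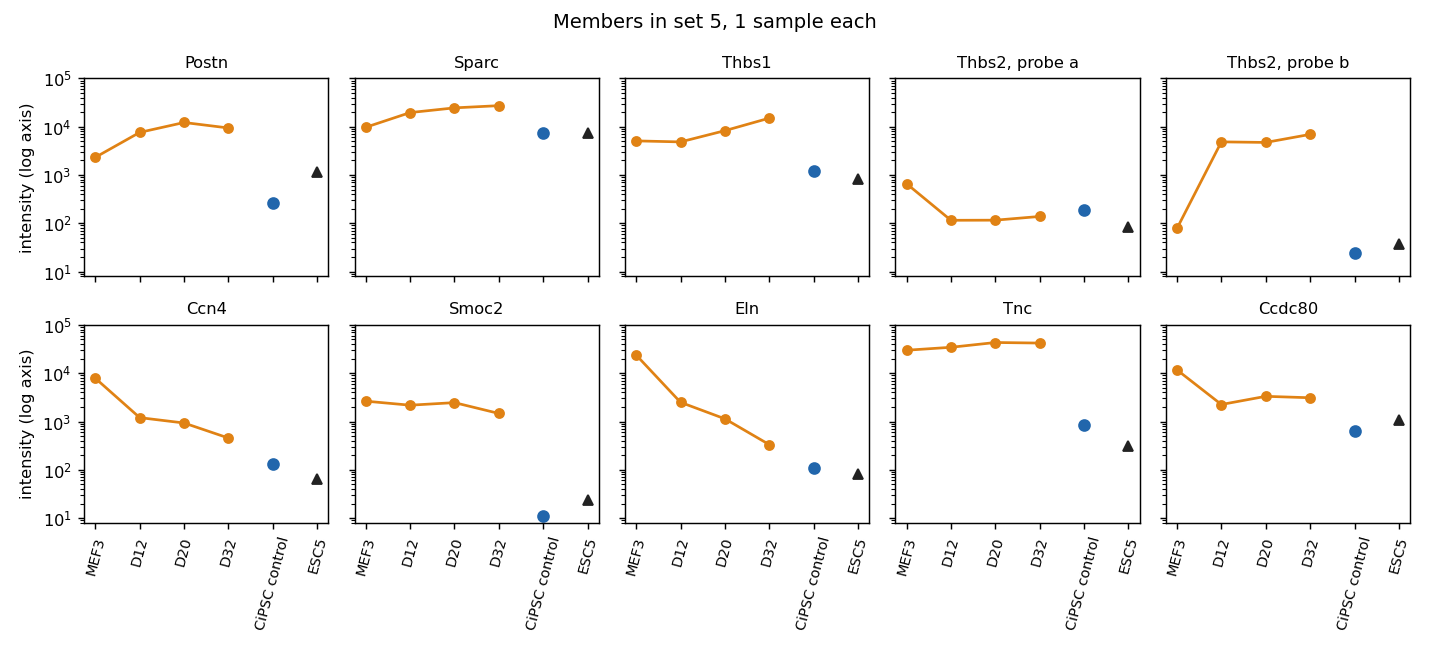
Deposited intensity (log axis) of the 10 probes of 9 members in set 5; joined points are MEF3 and days 12, 20 and 32, the blue point is the CiPSC control and the triangle ESC5, 1 sample each. Eln and Ccn4 step down from MEF3 (23829 to 332 and 7868 to 455), Tnc stays high (29948 to 42179), and the Thbs2 probes a and b go opposite ways.

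Other genes of the same kinds were counted from lists, which were chosen with earlier results of these data known. Their counts therefore describe the lists and are no independent evidence. Of 13 testable further matricellular genes, 8 were lower in CiPSC than in somatic cells, with a median of -1.90, where 13.3% of all genes were lower and their median was -0.11. The largest called were Igfbp7 (-4.88 ± 0.69), an insulin-like growth factor binding protein, Ccn5 (-3.27 ± 0.55) and Tgfbi (-2.53 ± 0.86), a relative of periostin. Of 18 elastic fibre genes, 14 were lower, with a median of -3.50, led by Loxl1 (-5.47 ± 0.37), an elastin cross-linking oxidase, Mfap4 (-5.04 ± 0.73), a microfibril-associated protein, and Fbln5 (-5.04 ± 0.65), which tethers elastin to cells. Of 14 receptors and activators, 9 were lower, with a median of -1.90, led by the procollagen protease Bmp1 (-4.51 ± 0.43), Tgfb3 (-3.86 ± 0.68) and the integrin subunit Itga8 (-3.26 ± 0.62). In ESC against somatic cells 7 of 13, 16 of 18 and 10 of 14 were lower, with medians of -2.52, -4.35 and -2.03, where 14.2% of all genes were lower with a median of -0.10. In OSKM iPSC 4 of 11, 8 of 11 and 7 of 13 were lower, with medians of -1.42, -3.34 and -2.06, beside 10% of all genes and a median of 0.04. In SKM-FSK iPSC 6 of 13, 14 of 18 and 7 of 14 were lower, with medians of -2.67, -4.39 and -2.06, beside 7.92% of all genes and a median of 0.03. Of these 3 lists no gene was called higher in any of the 4 comparisons with somatic cells, and none was called by limma between CiPSC and ESC or between wild-type and other CiPSC.

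Across the 30 samples, with each set's mean removed, Tnc and Eln correlated with r = 0.741. The genes most like their mean profile, among 10297 measured in all samples, were Olfml2b (r = 0.974), Chsy3 (0.973), Col5a2 (0.972), Slc39a13 (0.972) and Loxl1 (0.968). The samples share sets and fall into somatic and pluripotent groups, so these values describe the profile and carry no test.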

How the data were processed

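Per the labels, RNA of 30 samples was labelled with Cy5 for a Mouse OneArray. The deposited values are probe intensity on a linear scale, 1 column per sample, normalized by the authors in 5 sets separately; no source used here gives the background correction or the probe filters. Of 26423 probes, 21876 carried 1 gene in the platform annotation, 4547 none and 0 several, and 21825 probes matched RefSeq (GRCm38.p6) by gene ID, which gave gene positions and promoters. No measured member reached the ceiling of about 65490 that each set's largest value marks.

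Values were converted to log2 with a floor of 1e-04. Where a gene had several probes, the one measured in most samples, then with the highest mean, stood for it, which left 23629 units. Differences were fitted with limma 3.58.1 (R 4.3.3) on group and set, with Benjamini-Hochberg adjustment over all genes tested (at least 3 residual degrees of freedom, fewer for the wild-type contrast, whose Thbs1 fit had 2). A call needs an adjusted p under 0.05 and at least 2-fold. Set 3, set 5 and somatic single samples have values and ratios with no test. Whether replicates were separate cultures is not stated, so p-values measure the spread between these samples.

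The named genes are the members with every probe, up to 3 called genes of largest difference per list and the 5 genes most like the mean profile of Tnc and Eln. The members and lists were chosen with earlier results of these data known. Simulated data with known changes were used to test the scripts. The check of paired probes was added after the values had been seen. Alternatives covered normalization, floor, probe choice, filter, variance trend, residual degrees of freedom, set term, samples and pairing.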

Additional observations from a re-analysis of the deposited data

Results flagged for a closer look

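Groups of 4 to 9 samples were checked. In 3 of the 9 groups, each of 4 or 5 samples, 1 sample stood far from the others. Chance gives about 1 in 20 groups, and 2 of the 3 are a single difference, that of MEF3 and ESC5, read from each side, so they count once. For Sparc, MEF3 was 0.37 above the ESC of its set (log2), and the next somatic sample was 2.20 above. The same pair seen from the other side puts ESC5 at -0.37 from its somatic sample and the next ESC at -2.20. For Eln, ESC2 was -2.68 from the mean of its somatic samples and the next ESC -7.54. The Eln intensity of ESC2 itself (86.5) lay within that of the other ESC (59.6 to 140.2). The somatic samples of set 2 read 158 to 2328, and those of the other sets 19219 to 31623.

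In 3 members both wild-type CiPSC lines were above ESC3 while the CiPSC control, the 1 other CiPSC line measured, was below ESC5. The lower wild-type line differed from ESC3 by 4.81 (log2) for Postn, 4.64 for Ccdc80 and 2.26 for Smoc2, and the CiPSC control from ESC5 by -2.12, -0.72 and -1.12. ESC5 itself read 1137 for Postn and 1073 for Ccdc80, against 130 and 209 in ESC3 and 102 and 52.0 in ESC4. For Smoc2 it read 23.5, against 8.75 in ESC3 and 28.9 in ESC4. Fibroblast markers summed to 3894 in ESC5 and 1507 in the CiPSC control. The sign in set 5 thus depends on the level of ESC5 as well as on that of the CiPSC control. As differences of direction these were not tested, and the limma contrast of the lines called none of these genes.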

How the results depend on the processing

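Without set 3, without set 5, without both wild-type lines, or without these and MAF CiPS3 (the last 2 chosen after seeing the data), CiPSC were lower than somatic cells in 3 of the 3 members still testable. ESC against somatic gave 3 of 3 members and SKM-FSK iPSC against somatic 2 of 3 without set 3. OSKM iPSC against somatic gave 1 member in sets holding both groups (Eln, -3.71, limma adjusted p = 0.0596, was not called). The 5 genes called between CiPSC and ESC became 2 with no set term, 1 in sets holding both groups, 1, 42, 0 and 1 without sets 1, 2, 3 and 4, 3 with embryonic fibroblasts as the only somatic samples, 51 without the TT2 line and 2 without both wild-type lines. SKM-FSK iPSC against somatic gave 3917 genes with no set term, against 2475. The 1 gene called between wild-type and other CiPSC became 0 with the 5th percentile added, 0 with values under 16 set to 16, 41 with no set term, 7, 0 and 8 without sets 2, 4 and 5, 11 with embryonic fibroblasts only and 4 without TT2, and 1 member (Tnc, 4.85) was called with no set term. Eln reversed in that contrast, to 0.28 with no set term, 0.77 without set 2 and 0.57 with embryonic fibroblasts only.

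Replicate numbers join samples of different sets (MEF2 in set 4, ESC2 in set 2), so they share only a number. With the number as a replicate block in place of set, fewer members were testable. Members called were 3 of 3 (CiPSC against somatic), 3 of 3 (ESC against somatic), 2 of 3 (SKM-FSK iPSC) and 1 of 7 (wild-type contrast). Genes called were 2894 in ESC against somatic, 0 in CiPSC against ESC, 3867 in SKM-FSK iPSC and 3056 in the wild-type contrast.

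Leaving out 1 sample at a time gave 3 to 7 members and 4216 to 4778 genes in CiPSC against somatic, 7 to 8 and 4433 to 4941 in ESC against somatic, 0 and 0 to 51 in CiPSC against ESC, 2 and 2398 to 3119 in OSKM iPSC, 4 to 7 and 1079 to 3671 in SKM-FSK iPSC, and 0 to 1 and 0 to 10 in the wild-type contrast. The count was 3 without WT MEF, without MEF3 or without the CiPSC control, each of which leaves 3 testable members. Of genes, CiPSC against ESC gave 51 without ESC2 and 0 without ESC1, SKM-FSK iPSC 1100 without SKM-FSK1 and 1079 without SKM-FSK2, and the wild-type contrast 10 without MAF CiPS3. A lone sample of a group is assumed to vary like the other groups. The cause of these changes was not tested beyond the fewer members or samples they leave. In set 3 the position of Ccn4 was 0.49 with the 5th percentile added (0.51 as reported).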
